A study of Homo sapiens with 12 samples.

Results

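Inflammasomes are protein platforms that myeloid cells build when a sensor detects microbial products or cell damage. A sensor protein (an NLR, or the DNA-binding AIM2) joins, often through the adaptor ASC, to procaspase 1, and active caspase 1 then cuts pro-interleukin 1 beta and pro-interleukin 18 and opens gasdermin D, which makes pores in the plasma membrane. The transcripts of these components are controlled separately from assembly of the platform, so RNA levels describe the supply of parts and not the activity of the complex.

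The 10 genes described here were chosen with earlier results of these data known. They were picked by name, from knowledge of the pathway, among the 78930 genes of the deposited count table. They are the sensors NLRP1, NLRP3, NLRC4, NAIP and AIM2, the adaptor PYCARD (which encodes ASC), the caspases CASP1 and CASP4, the pore-former GSDMD and the cytokine IL18. All 10 of 10 passed the filter on low counts, as did 24064 genes in all. AIM2 did so through the groups in which it was higher, as given below.

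Per the labels' protocols, the RNA came from OCI-AML3, a human acute myeloid leukemia line that carries the NPM1c mutation of nucleophosmin, in a degron version (genotype NPM1c-degron in every group) whose NPM1c is removed by the degrader dTAG-13. Lentivirus carried mCherry alone, full-length NPM1c (FL-NPM1c) or a form named C-body null. After 48 hours the cells received 500 nM dTAG-13 or DMSO, and cells positive for mCherry were collected by sorting after a further 24 hours. The 4 groups of 3 libraries were NTC DMSO, dTAG mCherry, dTAG FL-NPM1c and dTAG C-body null. For NTC DMSO the titles name DMSO but the treatment label reads dTAG, no construct is named and NTC is not spelled out, so degrader, construct and any other difference from that group cannot be told apart. The cell line label carries a different running number in each of the 12 samples, while the protocol names OCI-AML3 alone; the libraries were taken here as 1 line, an assumption that was not tested and on which every comparison rests. Nothing states that the replicates were separate cultures, and p-values then measure only the spread between these libraries, which may be technical.

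Library totals ran from 30.5 M to 59.9 M counts, with a median of 41.0 M. NPM1, counted over all its forms and given as CPM (counts scaled to library size), was lowest in dTAG mCherry at 1252 ± 171 (SD, n = 3), followed by NTC DMSO at 1430 ± 117, dTAG FL-NPM1c at 1651 ± 38.9 and dTAG C-body null at 1922 ± 21.7; this gene-level count does not separate the endogenous from the introduced form and does not measure the protein. Of the line identity genes CD33, KIT, MPO, HOXA9 and MEIS1, KIT was at 0 in all 12 libraries and the summed level of the 5 was 118 to 146 CPM. That sum hides opposite changes. In NTC DMSO, dTAG mCherry, dTAG FL-NPM1c and dTAG C-body null in turn, mean HOXA9 was 60.6, 42.9, 45 and 29 CPM. Mean MEIS1 was 23, 13.2, 15.7 and 8.23 CPM, and mean CD33 was 58.1, 77.1, 64.5 and 80.6 CPM. MPO stayed at 1.1 to 3.09 CPM. Defining markers of T cells (CD3D, CD3E, CD3G, CD2) and of epithelium (EPCAM, KRT19, CDH1) were at 0 in all 12. Also on the T and NK cell list, NKG7 was at 0.725 to 1.37 CPM and GNLY at 0 to 0.137 CPM. Replicates 1, 2 and 3 of dTAG mCherry had 8.41%, 7.32% and 9.63% of counts on mitochondrial genes, against 6.83% to 7.63% in the other 9 libraries, and its replicate 3 had the lowest total. In these bulk samples, fewer cells of a type and less RNA per cell cannot be told apart.

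The levels of 6 of the 10 genes can be outlined first. NAIP, NLRC4 and CASP1 were higher in dTAG mCherry and dTAG C-body null than in dTAG FL-NPM1c; FL-NPM1c was still above NTC DMSO for NAIP and NLRC4, a difference that CASP1 did not pass. AIM2 was low in NTC DMSO and higher in all 3 dTAG groups. GSDMD was higher in dTAG FL-NPM1c than in dTAG mCherry and dTAG C-body null, the reverse of CASP1, while NLRP3 passed no test between any of the groups. The GSDMD differences of dTAG FL-NPM1c and dTAG mCherry from NTC DMSO did not pass. Calls below are from edgeR's quasi-likelihood test with Benjamini-Hochberg adjustment over all genes tested, at adjusted p under 0.05, and a change is a log2 fold change ± its standard error.

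**Figure D1:**
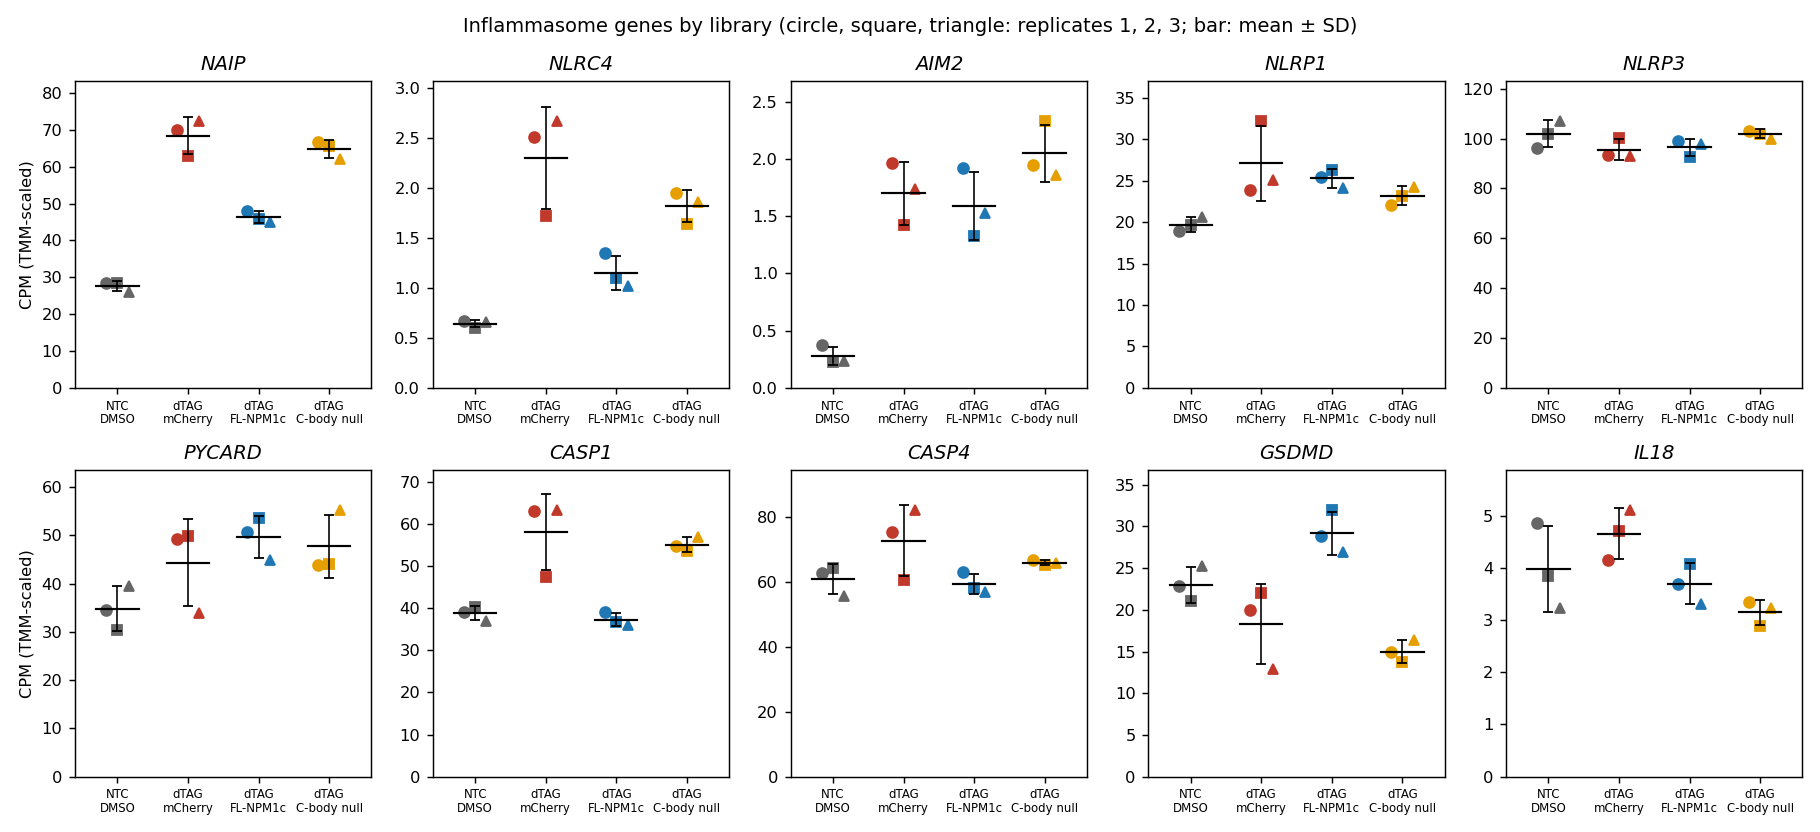
Scaled CPM (linear axes from 0) of the 10 inflammasome genes in each of the 12 libraries, by group; symbols are replicates 1 to 3, and bars are the mean ± SD. NAIP sits at 26.0 to 28.5 CPM in NTC DMSO and at 62.1 to 72.4 CPM in dTAG mCherry and dTAG C-body null, with dTAG FL-NPM1c between them, while NLRP3 stays between 92.7 and 107 CPM throughout.

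AIM2 binds double-stranded DNA in the cytosol. It had the largest change of the 10 genes in each of the 3 comparisons with NTC DMSO, where its counts were few. Promoter windows of 300 bases (250 before to 50 after a start site) were matched for 5 of the 10 genes, in 7 windows, from RefSeq on GRCh38.p14. Those of AIM2, NLRC4 and NLRP3 are shown because they are the sensor with the largest rise, another that rose and the abundant sensor that passed no test. Each runs 5′ to 3′ on the gene's strand, and capitals mark motif matches. AIM2 is chr1:159076717-159077016 (minus strand), NLRC4 is the farthest upstream of its 3 windows, chr2:32265694-32265993 (minus strand), and NLRP3 is chr1:247415923-247416222 (plus strand).
AIM2: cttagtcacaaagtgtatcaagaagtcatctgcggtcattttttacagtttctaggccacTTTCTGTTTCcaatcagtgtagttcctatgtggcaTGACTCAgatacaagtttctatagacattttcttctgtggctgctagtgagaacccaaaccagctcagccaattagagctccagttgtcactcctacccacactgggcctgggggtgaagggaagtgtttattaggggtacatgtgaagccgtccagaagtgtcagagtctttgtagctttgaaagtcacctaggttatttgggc
NLRC4: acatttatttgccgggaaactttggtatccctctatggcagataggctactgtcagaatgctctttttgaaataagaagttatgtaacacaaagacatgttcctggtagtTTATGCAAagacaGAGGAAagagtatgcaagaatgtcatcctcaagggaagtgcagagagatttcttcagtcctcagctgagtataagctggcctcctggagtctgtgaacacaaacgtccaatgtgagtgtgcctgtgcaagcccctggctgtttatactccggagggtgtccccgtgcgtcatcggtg
NLRP3: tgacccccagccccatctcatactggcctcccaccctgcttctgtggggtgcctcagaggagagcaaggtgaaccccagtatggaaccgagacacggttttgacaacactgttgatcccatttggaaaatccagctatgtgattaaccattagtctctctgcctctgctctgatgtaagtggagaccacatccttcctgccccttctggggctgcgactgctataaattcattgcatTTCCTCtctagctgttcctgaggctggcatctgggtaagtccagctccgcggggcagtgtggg

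Motifs were searched by their letters on both strands. The AIM2 window held TTTCTGTTTC, the reverse strand of an interferon-response type motif (GAAA, any 2 bases, GAAA), starting 190 bases before the start site. It also held TGACTCA, 155 bases before that site. This is a match to the AP-1 type pattern TGANTCA, a pattern that reads the same way on both strands. Over 35116 such windows of all genes, 3.57% held the first motif and 7.71% the second. The NLRC4 window held TTATGCAA, the reverse strand of the C/EBP type TTGCNNAA (10.5% of windows), and GAGGAA, a PU.1-type ETS match (27.9% of windows). Among the other NLRC4 windows, the next one overlaps the window shown and held only the same GAGGAA site. The farthest downstream held none of the motifs. The NLRP3 window held the reverse strand of that ETS motif, TTCCTC, 13 bases before its start. Neither an NF-kB type motif (GGG, any 2 bases, TTTCC; 1.91% of windows) nor an ETS-IRF type (GGAA, any 2 bases, GAAA; 2.82%) was found in the 7 windows. A match describes letters and is not a measured binding site.

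AIM2 (ENSG00000163568, GRCh38 chr1:159062484-159147096, minus strand) was at 0.372, 0.225 and 0.238 CPM in the NTC DMSO replicates, which is 9 to 15 counts a library. It was at 1.96, 1.42 and 1.74 CPM in dTAG mCherry, at 1.92, 1.33 and 1.53 CPM in dTAG FL-NPM1c and at 1.95, 2.33 and 1.86 CPM in dTAG C-body null, with 52 to 93 counts. Every dTAG library was above every NTC DMSO library, and the 3 dTAG groups overlapped one another. AIM2 passed the low-count filter through these dTAG libraries, and its large change rests on few NTC DMSO counts. The change from NTC DMSO was 2.59 ± 0.26 in dTAG mCherry (adjusted p = 1.5e-06, edgeR), a 6.01-fold difference. For FL-NPM1c it was 2.50 ± 0.25, and for C-body null 2.86 ± 0.25. FL-NPM1c differed from mCherry by -0.09 ± 0.19, which did not pass (adjusted p = 0.78, edgeR).

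NAIP and NLRC4 work as a pair: NAIP proteins bind bacterial flagellin or secretion needle proteins and then nucleate NLRC4. NAIP (ENSG00000249437, GRCh38 chr5:70968483-71025114, minus strand) was at 28.5, 28.5 and 26.0 CPM in NTC DMSO and at 70.0, 62.8 and 72.4 CPM in dTAG mCherry. It was at 48.0, 45.8 and 45.0 CPM in dTAG FL-NPM1c and at 66.7, 65.6 and 62.1 CPM in dTAG C-body null. The dTAG FL-NPM1c libraries thus lay above all of NTC DMSO and below all of the other dTAG libraries. The rise from NTC DMSO to dTAG mCherry was 1.30 ± 0.08 (adjusted p = 7e-09, edgeR). FL-NPM1c was lower than mCherry by -0.56 ± 0.08 (adjusted p = 0.00019, edgeR) and lower than C-body null by -0.49 ± 0.08 (adjusted p = 0.00064, edgeR), while C-body null and mCherry differed by -0.08 ± 0.08 (adjusted p = 0.69, edgeR). FL-NPM1c was above NTC DMSO by 0.74 ± 0.08.

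NLRC4 (ENSG00000091106, GRCh38 chr2:32224453-32265854, minus strand) was far scarcer, with 24 to 27 counts a library in NTC DMSO, and had the same order of groups. It was at 0.670, 0.600 and 0.661 CPM in NTC DMSO, 2.51, 1.72 and 2.67 CPM in dTAG mCherry, 1.35, 1.10 and 1.02 CPM in dTAG FL-NPM1c and 1.95, 1.64 and 1.86 CPM in dTAG C-body null. No library of dTAG FL-NPM1c overlapped any other group. The rise from NTC DMSO to dTAG mCherry was 1.82 ± 0.21 (adjusted p = 8e-06, edgeR), and FL-NPM1c was lower than mCherry by -0.98 ± 0.19 (adjusted p = 0.0027, edgeR). C-body null exceeded NTC DMSO by 1.49 ± 0.21. The NLRC4 difference of FL-NPM1c from C-body null, -0.66 ± 0.19 (adjusted p = 0.037, edgeR), was lost on leaving out C-body null replicate 1 (0.13), 2 (0.054) or 3 (0.073) or FL-NPM1c replicate 2 (0.12) or 3 (0.13), these being adjusted p values. Its difference from NTC DMSO, 0.83 ± 0.22 (adjusted p = 0.01, edgeR), was lost without NTC DMSO replicate 2 (adjusted p = 0.057) or FL-NPM1c replicate 1 (adjusted p = 0.065).

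NAIP has close copies nearby, and its counts are uncertain because it is not stated how multi-mapping reads were handled. The pseudogenes NAIPP2 (672 to 1960 counts) and NAIPP4 (592 to 1757 counts) followed NAIP (985 to 2930 counts): the ratio of NAIP to NAIPP2 stayed between 1.41 and 1.54 over the 12 libraries and that to NAIPP4 between 1.61 and 1.77. NAIPP2 rose by 1.26 ± 0.09 from NTC DMSO to dTAG mCherry and NAIPP4 by 1.26 ± 0.08. How far the 3 loci share reads was not tested.

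**Figure D2:**
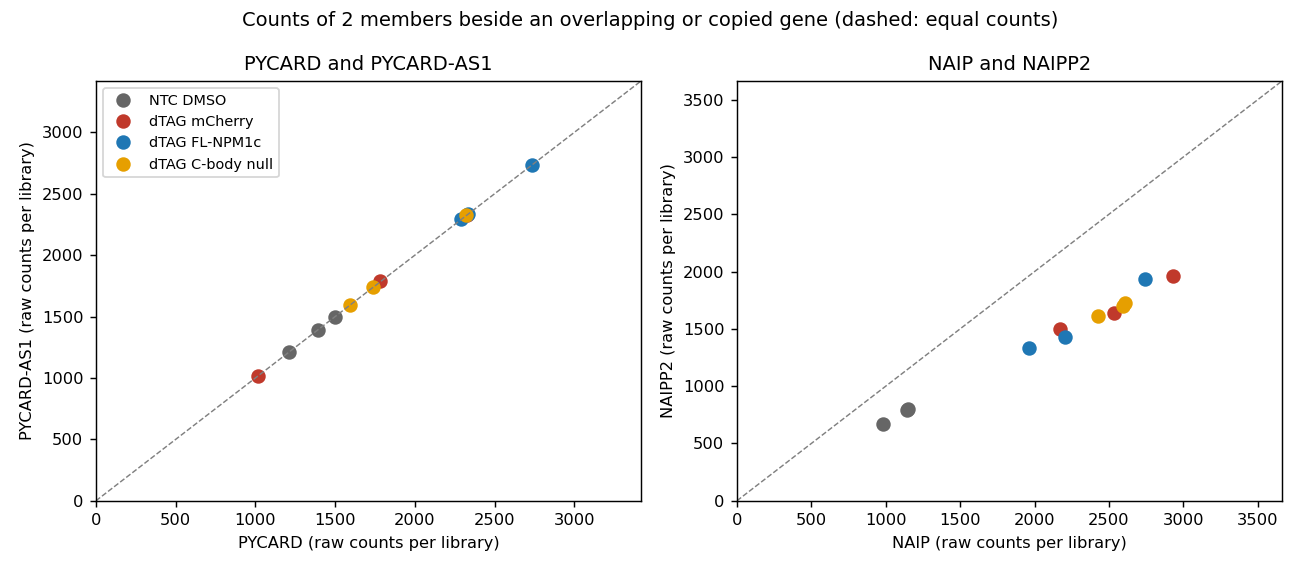
Deposited counts per library of PYCARD against its antisense gene PYCARD-AS1 and of NAIP against the pseudogene NAIPP2; each point is a library, coloured by group, and the dashed line marks equal counts. PYCARD and PYCARD-AS1 differ by at most 7 counts in any library, and the ratio of NAIP to NAIPP2 runs from 1.41 to 1.54.

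NLRP3 responds to potassium efflux and many danger signals and is the best known myeloid inflammasome sensor. NLRP3 (ENSG00000162711, GRCh38 chr1:247416156-247449108, plus strand) was at 96.1, 102 and 107 CPM in NTC DMSO, 93.3, 100.4 and 92.9 CPM in dTAG mCherry, 99.0, 92.7 and 97.6 CPM in dTAG FL-NPM1c and 103, 102 and 99.8 CPM in dTAG C-body null. Its 6 differences ran from -0.09 ± 0.07 (dTAG mCherry minus NTC DMSO; adjusted p = 0.4, edgeR) to 0.09 ± 0.07 (C-body null minus mCherry; adjusted p = 0.61, edgeR). Per kb of exon, NLRP3 was at 21.4 ± 1.14 CPM in NTC DMSO, against 2.91 ± 0.151 for NAIP, 1.54 ± 0.0686 for NLRP1, 0.178 ± 0.0104 for NLRC4 and 0.139 ± 0.0405 for AIM2. NLRP3 was thus the most abundant of the 5 sensors per length.

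NLRP1 senses proteases and double-stranded RNA. NLRP1 (ENSG00000091592, GRCh38 chr17:5499427-5619424, minus strand) was at 18.9, 19.6 and 20.6 CPM in NTC DMSO, 23.9, 32.2 and 25.1 CPM in dTAG mCherry, 25.4, 26.3 and 24.1 CPM in dTAG FL-NPM1c and 22.1, 23.1 and 24.3 CPM in dTAG C-body null. All dTAG libraries were above NTC DMSO, and dTAG mCherry replicate 2 was the highest. The rise to dTAG mCherry was 0.46 ± 0.11 (adjusted p = 0.0042, edgeR). That of NLRP1 to FL-NPM1c, 0.36 ± 0.10 (adjusted p = 0.018, edgeR), was lost without NTC DMSO replicate 1 (0.075) or 2 (0.068) or FL-NPM1c replicate 1 (0.063) or 2 (0.071), again as adjusted p. C-body null differed from NTC DMSO by 0.24 ± 0.11 (adjusted p = 0.11, edgeR), and by 0.23 (adjusted p = 0.03) without dTAG mCherry replicate 2.

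PYCARD encodes the adaptor that links PYD-bearing sensors to caspase 1. PYCARD (ENSG00000103490, GRCh38 chr16:31201485-31203450, minus strand) was at 34.5, 30.3 and 39.5 CPM in NTC DMSO, 49.2, 49.9 and 33.9 CPM in dTAG mCherry, 50.7, 53.5 and 44.8 CPM in dTAG FL-NPM1c and 43.8, 44.0 and 55.3 CPM in dTAG C-body null. The dTAG mCherry group overlapped NTC DMSO through its replicate 3, and the change, 0.35 ± 0.14, did not pass (adjusted p = 0.084, edgeR); it was 0.51 (adjusted p = 0.0052) without that library and 0.45 (adjusted p = 0.04) without NTC DMSO replicate 3. FL-NPM1c and C-body null exceeded NTC DMSO by 0.51 ± 0.14 (adjusted p = 0.012, edgeR) and 0.46 ± 0.14 (adjusted p = 0.024, edgeR). The PYCARD call for FL-NPM1c was lost without NTC DMSO replicate 2 (adjusted p = 0.079) or FL-NPM1c replicate 2 (adjusted p = 0.056), and that for C-body null without NTC DMSO replicate 1 (0.069) or 2 (0.1) or C-body null replicate 3 (0.11).

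The PYCARD value is uncertain for another reason. PYCARD-AS1, an antisense gene (GRCh38 chr16:31201885-31203452), overlaps its exons over 991 bases, and the deposited counts of the 2 genes were nearly the same: 1016 to 2732 for PYCARD and 1016 to 2734 for PYCARD-AS1, with a largest difference of 7 counts in a library. Reads of PYCARD and its antisense partner cannot be told apart here, since their counts are nearly equal in every library. The strand setting of the counting is not given, and whether the same reads were counted for both genes was not tested.

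CASP1 encodes the protease that matures interleukin 1 beta and interleukin 18. CASP1 (ENSG00000137752, GRCh38 chr11:105025443-105035250, minus strand) was at 39.1, 40.2 and 37.0 CPM in NTC DMSO and 63.2, 47.5 and 63.4 CPM in dTAG mCherry. It was at 39.0, 36.7 and 36.1 CPM in dTAG FL-NPM1c, overlapping NTC DMSO, and at 54.9, 53.5 and 57.0 CPM in dTAG C-body null. CASP1 rose by 0.58 ± 0.10 from NTC DMSO to dTAG mCherry (adjusted p = 0.00044, edgeR). FL-NPM1c was lower than mCherry by -0.64 ± 0.10 (adjusted p = 0.00053, edgeR) and lower than C-body null by -0.56 ± 0.10 (adjusted p = 0.0013, edgeR). FL-NPM1c minus NTC DMSO was -0.06 ± 0.10 (adjusted p = 0.71, edgeR).

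CASP4, whose product binds bacterial lipopolysaccharide in the cytosol and cuts gasdermin D directly, lies on the same arm of chromosome 11. CASP4 (ENSG00000196954, GRCh38 chr11:104942866-104969436, minus strand) was at 62.6, 64.4 and 55.7 CPM in NTC DMSO, 75.3, 60.6 and 82.2 CPM in dTAG mCherry, 62.9, 58.2 and 56.9 CPM in dTAG FL-NPM1c and 66.7, 65.1 and 65.8 CPM in dTAG C-body null. In dTAG mCherry, replicate 2 was the low library for both caspases. CASP4 passed no test: 0.25 ± 0.10 for dTAG mCherry minus NTC DMSO (adjusted p = 0.079, edgeR) and -0.29 ± 0.10 for FL-NPM1c minus mCherry (adjusted p = 0.056, edgeR). Without dTAG mCherry replicate 2 these were 0.37 (adjusted p = 0.0033) and -0.41 (adjusted p = 0.0022), and the second also passed without NTC DMSO replicate 2 (0.049) or 3 (0.038) and in DESeq2 (0.039). Within a library, the count ratio of CASP1 to CASP4 was 0.624, 0.624 and 0.665 in NTC DMSO and 0.621, 0.631 and 0.634 in dTAG FL-NPM1c. It was 0.840, 0.784 and 0.772 in dTAG mCherry and 0.823, 0.822 and 0.866 in dTAG C-body null, so each library of these latter groups was above each of the former.

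GSDMD encodes gasdermin D, whose cleaved part forms the membrane pore of pyroptosis. GSDMD (ENSG00000104518, GRCh38 chr8:143553207-143563062, plus strand) was at 22.8, 21.0 and 25.3 CPM in NTC DMSO, 20, 22.0 and 12.9 CPM in dTAG mCherry, 28.9, 32.0 and 26.9 CPM in dTAG FL-NPM1c and 14.9, 13.7 and 16.4 CPM in dTAG C-body null. All FL-NPM1c libraries were above all others, and the C-body null libraries were below all of NTC DMSO. GSDMD was higher with FL-NPM1c than with mCherry by 0.67 ± 0.15 (adjusted p = 0.0076, edgeR) and than with C-body null by 0.96 ± 0.15 (adjusted p = 0.00045, edgeR). C-body null was lower than NTC DMSO by -0.62 ± 0.15 (adjusted p = 0.0058, edgeR). The change of GSDMD from NTC DMSO to dTAG mCherry, -0.32 ± 0.15 (adjusted p = 0.14, edgeR), was -0.48 (adjusted p = 0.027) without dTAG mCherry replicate 2. FL-NPM1c minus NTC DMSO, 0.34 ± 0.15 (adjusted p = 0.092, edgeR), was 0.35 (adjusted p = 0.013) without dTAG mCherry replicate 3 and 0.34 (adjusted p = 0.049) without replicate 2. Replicate 3 of dTAG mCherry was low for both GSDMD and PYCARD, and its part in these values beyond leaving it out was not tested.

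IL18 encodes a cytokine that is stored as a precursor and released after caspase 1 cleavage. IL18 (ENSG00000150782, GRCh38 chr11:112143251-112164117, minus strand) was at 4.86, 3.85 and 3.22 CPM in NTC DMSO, 4.14, 4.70 and 5.11 CPM in dTAG mCherry, 3.68, 4.08 and 3.30 CPM in dTAG FL-NPM1c and 3.35, 2.88 and 3.22 CPM in dTAG C-body null. IL18 passed no test. The dTAG mCherry libraries lay above all of both other dTAG groups, with -0.34 ± 0.15 for FL-NPM1c (adjusted p = 0.13, edgeR) and -0.56 ± 0.15 for C-body null (adjusted p = 0.16, edgeR). Without NTC DMSO replicate 3, IL18 in C-body null minus NTC DMSO was -0.47 (adjusted p = 0.033), against -0.34 ± 0.16 (adjusted p = 0.12, edgeR) with it.

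**Figure D3:**
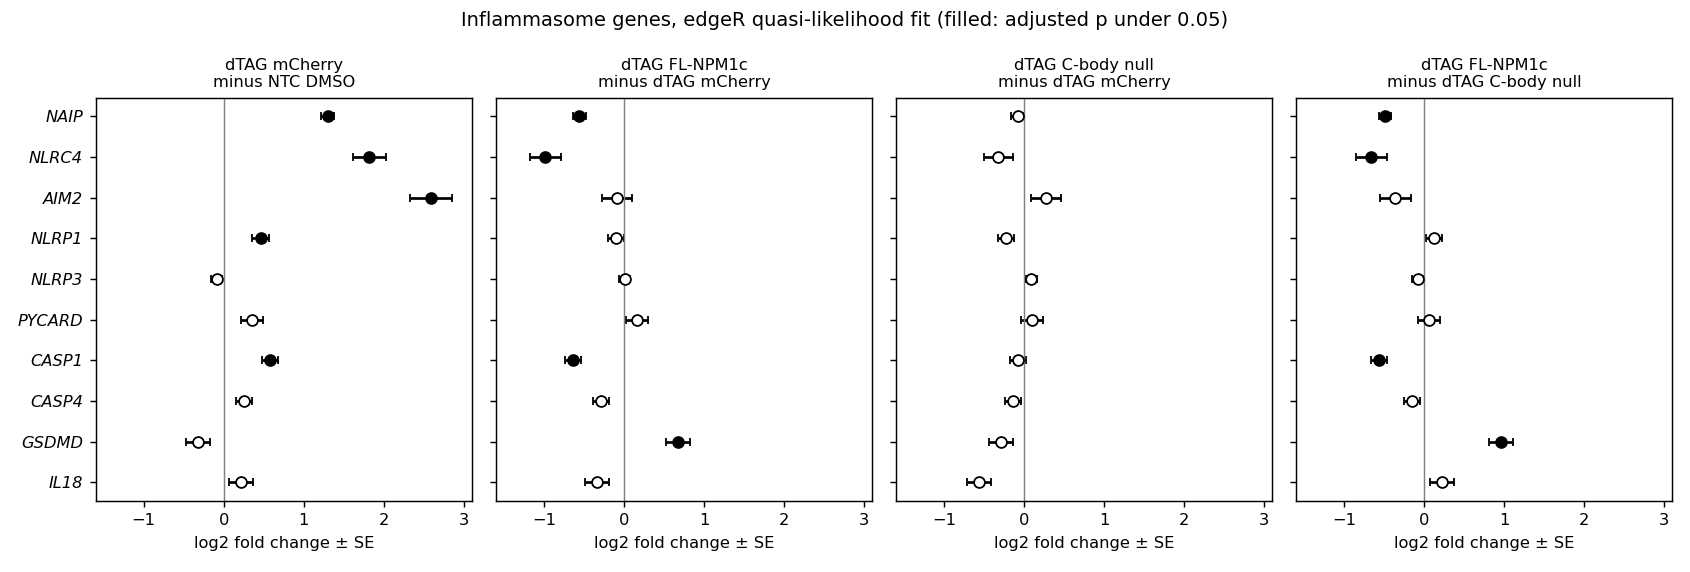
Log2 fold change ± standard error of each of the 10 genes in 4 comparisons, from edgeR; filled points passed adjusted p under 0.05. NLRC4, NAIP and CASP1 are above 0 in dTAG mCherry minus NTC DMSO and below 0 in dTAG FL-NPM1c minus dTAG mCherry, while GSDMD is at 0.67 in the latter.

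Counted over the set, 5 of 10 genes (NLRP1, NLRC4, NAIP, AIM2 and CASP1) were higher and none lower in dTAG mCherry than in NTC DMSO, where 22.6% of all genes tested were called, 12.9% higher and 9.69% lower. The median change of the 10 was 0.41, beside -0.00 over all genes tested. Because the genes were chosen with earlier results known, the shares here and below describe the set and do not test it. In FL-NPM1c minus mCherry, 1 of 10 was higher (GSDMD) and 3 lower (NLRC4, NAIP and CASP1), with a median of -0.20, against 15.5% of all genes called, 7.58% higher and 7.95% lower. Without dTAG mCherry replicate 2 the genes called went from 3735 to 6834, and CASP4 joined the members that were lower. In C-body null minus mCherry, edgeR called 0 of 10, and DESeq2 also called 0. At an unadjusted p under 0.05 there were 2 (NLRP1 and IL18) in edgeR and 1 in DESeq2. The share of all genes at that unadjusted threshold was not computed, so these counts have no background. For the adjusted calls the background was 0.594% of all genes, 0.216% higher and 0.378% lower. That background of 143 genes became 1399 without dTAG mCherry replicate 2 and 371 with DESeq2 (214 higher, 157 lower, against 52 and 91), and no member was called in either.

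FL-NPM1c minus C-body null had 1 of 10 higher (GSDMD) and 3 lower (NLRC4, NAIP and CASP1), with a median of -0.11, against 9.68% of all genes, 4.82% higher and 4.86% lower. FL-NPM1c minus NTC DMSO had 5 higher (NLRP1, NLRC4, NAIP, AIM2 and PYCARD) and none lower, with a median of 0.35, against 27.9%, 14.6% and 13.3%; this count was 2 without NTC DMSO replicate 2 and 3 without FL-NPM1c replicate 1 or 2. C-body null minus NTC DMSO had 5 higher (NLRC4, NAIP, AIM2, PYCARD and CASP1) and 1 lower (GSDMD), also with a median of 0.35, against 26.6%, 14.1% and 12.4%. The comparisons share groups, so their values are not independent of one another.

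Monocyte and macrophage markers moved in the same comparisons. All 10 of 10 on that list (CD14, LYZ, S100A8, S100A9, FCN1, CSF1R, ITGAM, CD68, VCAN and CD163) rose from NTC DMSO to dTAG mCherry, with a median of 3.24, and their summed level was 519 to 551 CPM in NTC DMSO libraries, 3572 to 3970 CPM with dTAG mCherry, 3194 to 3396 CPM with dTAG FL-NPM1c and 4720 to 4928 CPM with dTAG C-body null. LYZ made up most of this summed level, at a mean of 342 CPM in NTC DMSO and 2754 CPM in dTAG mCherry. It was at 2506 CPM with dTAG FL-NPM1c and 3773 CPM with dTAG C-body null. In C-body null minus mCherry, 1 of the 10 markers was higher and none lower (median 0.11). With FL-NPM1c, 3 of the 10 were lower than with mCherry (median -0.26) and 6 of the 10 lower than with C-body null (median -0.55), and none was higher in either comparison. The summed level of the 10 inflammasome genes was 308 to 315 CPM in NTC DMSO libraries, 383 to 403 CPM with dTAG mCherry, 337 to 361 CPM with dTAG FL-NPM1c and 374 to 388 CPM with dTAG C-body null. Of the neutrophil granule markers, only ELANE was tested. It was added after its values were seen, so its likeness to GSDMD is not a test. In C-body null minus NTC DMSO, where GSDMD was lower, ELANE did not pass (-0.31, adjusted p = 0.2, edgeR). ELANE was higher with FL-NPM1c, at 135, 142 and 109.6 CPM. It was at 107, 92.2 and 61.2 CPM with mCherry and at 75.4, 68.7 and 100.4 CPM with C-body null. The ELANE difference was 0.57 ± 0.17 from mCherry (adjusted p = 0.032, edgeR), lost without mCherry replicate 3 (0.12) or FL-NPM1c replicate 1 (0.11) or 2 (0.12). From C-body null it was 0.66 ± 0.17 (adjusted p = 0.019, edgeR), lost without C-body null replicate 1 (0.091) or 2 (0.12) or FL-NPM1c replicate 1 (0.072) or 2 (0.089). The neutrophil marker CEACAM8 was at 0 in all 12 libraries. The part of these marker changes in the results for the inflammasome genes was not tested.

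The other genes of the pathway were read from 6 lists. Of 18 other NLR, PYHIN and TRIM sensors, 11 were tested: 5 rose and 1 fell from NTC DMSO to dTAG mCherry (median 0.22), and 1 rose and 3 fell from mCherry to FL-NPM1c (median -0.16). MEFV, which encodes pyrin, rose by 0.63 ± 0.11 and was lower with FL-NPM1c by -1.02 ± 0.11. NLRP12, a mainly inhibitory NLR, rose by 1.10 ± 0.11 and was lower by -0.84 ± 0.11, and MNDA, a myeloid nuclear relative of AIM2, rose by 0.67 ± 0.09 and was lower by -0.80 ± 0.09. NOD1 went the other way, -0.33 ± 0.09 and then 0.40 ± 0.09 (adjusted p = 0.0064, edgeR; 0.055 without FL-NPM1c replicate 1); its first change had adjusted p = 0.09 with the 2 groups fitted alone. NLRP9 changed by 1.09 ± 0.33 from NTC DMSO to mCherry (adjusted p = 0.025, edgeR), a call lost without NTC DMSO replicate 1 (0.059) or 3 (0.092), without mCherry replicate 1 (0.088) and in DESeq2 (0.054). NLRP9 had only 8 to 15 counts a library in NTC DMSO and 19 to 27 in dTAG mCherry. Like AIM2, it passed the low-count filter through the dTAG libraries, so its change rests on few counts.

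Among 12 inflammatory caspases and CARD- or PYD-only regulators, 6 were tested, of which 2 rose and none fell from NTC DMSO to dTAG mCherry (median -0.02). CARD8, itself a sensor, rose by 0.36 ± 0.08 and was lower with FL-NPM1c by -0.35 ± 0.08 (adjusted p = 0.0082, edgeR; 0.058 without FL-NPM1c replicate 2), the only call of this list in that comparison. CARD16, a CARD-only neighbour of CASP1 that shares sequence with it, rose by 0.56 ± 0.15 (adjusted p = 0.012, edgeR; 0.075 without mCherry replicate 1). Of 6 other gasdermins and membrane rupture genes, 4 were tested, 2 rose in dTAG mCherry and none was called between FL-NPM1c and mCherry. NINJ1, which ruptures the membrane after the pore has formed, rose by 0.59 ± 0.15. PJVK changed by 0.52 ± 0.16 (adjusted p = 0.029, edgeR), a call lost without NTC DMSO replicate 2 (0.14) or mCherry replicate 1 (0.09) or 3 (0.054), with the 2 groups alone (0.09), with no filter (0.12) and in DESeq2 (0.081).

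The interleukin 1 family list had 7 of 15 genes tested, with 3 higher and 2 lower in dTAG mCherry than in NTC DMSO (median -0.03) and 5 lower and none higher with FL-NPM1c than with mCherry (median -0.81). IL1B, the other main caspase 1 substrate, was at 18.9 ± 0.0628 CPM (SD, n = 3) in NTC DMSO and 35.3 ± 6.38 CPM in dTAG FL-NPM1c, against 61.8 ± 6.31 CPM in dTAG mCherry and 65.2 ± 2.79 CPM in dTAG C-body null. It rose by 1.71 ± 0.11 and was lower with FL-NPM1c by -0.81 ± 0.11, whereas IL18 passed neither test. Both chains of the interleukin 18 receptor fell: IL18R1 by -1.28 ± 0.10 from NTC DMSO to dTAG mCherry and by -0.88 ± 0.11 and -0.86 ± 0.11 from mCherry to FL-NPM1c and to C-body null, and IL18RAP by -1.64 ± 0.11, -1.03 ± 0.12 and -0.99 ± 0.12. The receptor IL1R1 rose by 1.08 ± 0.21 and was lower with FL-NPM1c by -0.87 ± 0.20, and its partner IL1RAP was lower with FL-NPM1c by -0.81 ± 0.13.

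Of 14 activators and brakes, 11 were tested, with 7 higher and 1 lower in dTAG mCherry (median 0.70) and 1 higher and 4 lower with FL-NPM1c (median -0.22). P2RX7, the ATP-gated channel upstream of NLRP3, rose by 1.03 ± 0.10 and was lower by -0.78 ± 0.10 with FL-NPM1c. PSTPIP1, a pyrin partner, rose by 1.19 ± 0.16 and was lower by -0.56 ± 0.15 (adjusted p = 0.021, edgeR; 0.059 and 0.065 without FL-NPM1c replicate 2 and 3), and the protease inhibitor SERPINB9 rose by 0.70 ± 0.09 and was lower by -0.59 ± 0.09. TXNIP, a redox regulator that can bind NLRP3, rose by 0.90 ± 0.08, and GBP2, an interferon-induced GTPase, by 1.56 ± 0.16. Its relative GBP4 rose by 0.88 ± 0.19 and was higher again with FL-NPM1c by 1.18 ± 0.16.

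All 13 priming receptors and transcription factors were tested, with 5 higher and 2 lower in dTAG mCherry (median 0.11) and 1 higher and 3 lower with FL-NPM1c (median 0.02). The lipopolysaccharide receptor TLR4 rose by 1.21 ± 0.09 and was lower with FL-NPM1c by -1.04 ± 0.09. TLR2, a lipoprotein receptor, rose by 0.85 ± 0.09 and changed by -0.35 ± 0.09 with FL-NPM1c (adjusted p = 0.013, edgeR), a call lost without FL-NPM1c replicate 1 (0.053) or 2 (0.051) or mCherry replicate 3 (0.057). The myeloid factors SPI1 (PU.1) and IRF8 rose by 0.56 ± 0.12 and 0.49 ± 0.06. IRF1 was higher with FL-NPM1c than with mCherry by 1.09 ± 0.10; its change from NTC DMSO to mCherry, -0.32 ± 0.10 (adjusted p = 0.023, edgeR), was lost without NTC DMSO replicate 3 (0.084) or mCherry replicate 1 (0.08) or 3 (0.067) and with the 2 groups alone (0.091).

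**Figure D4:**
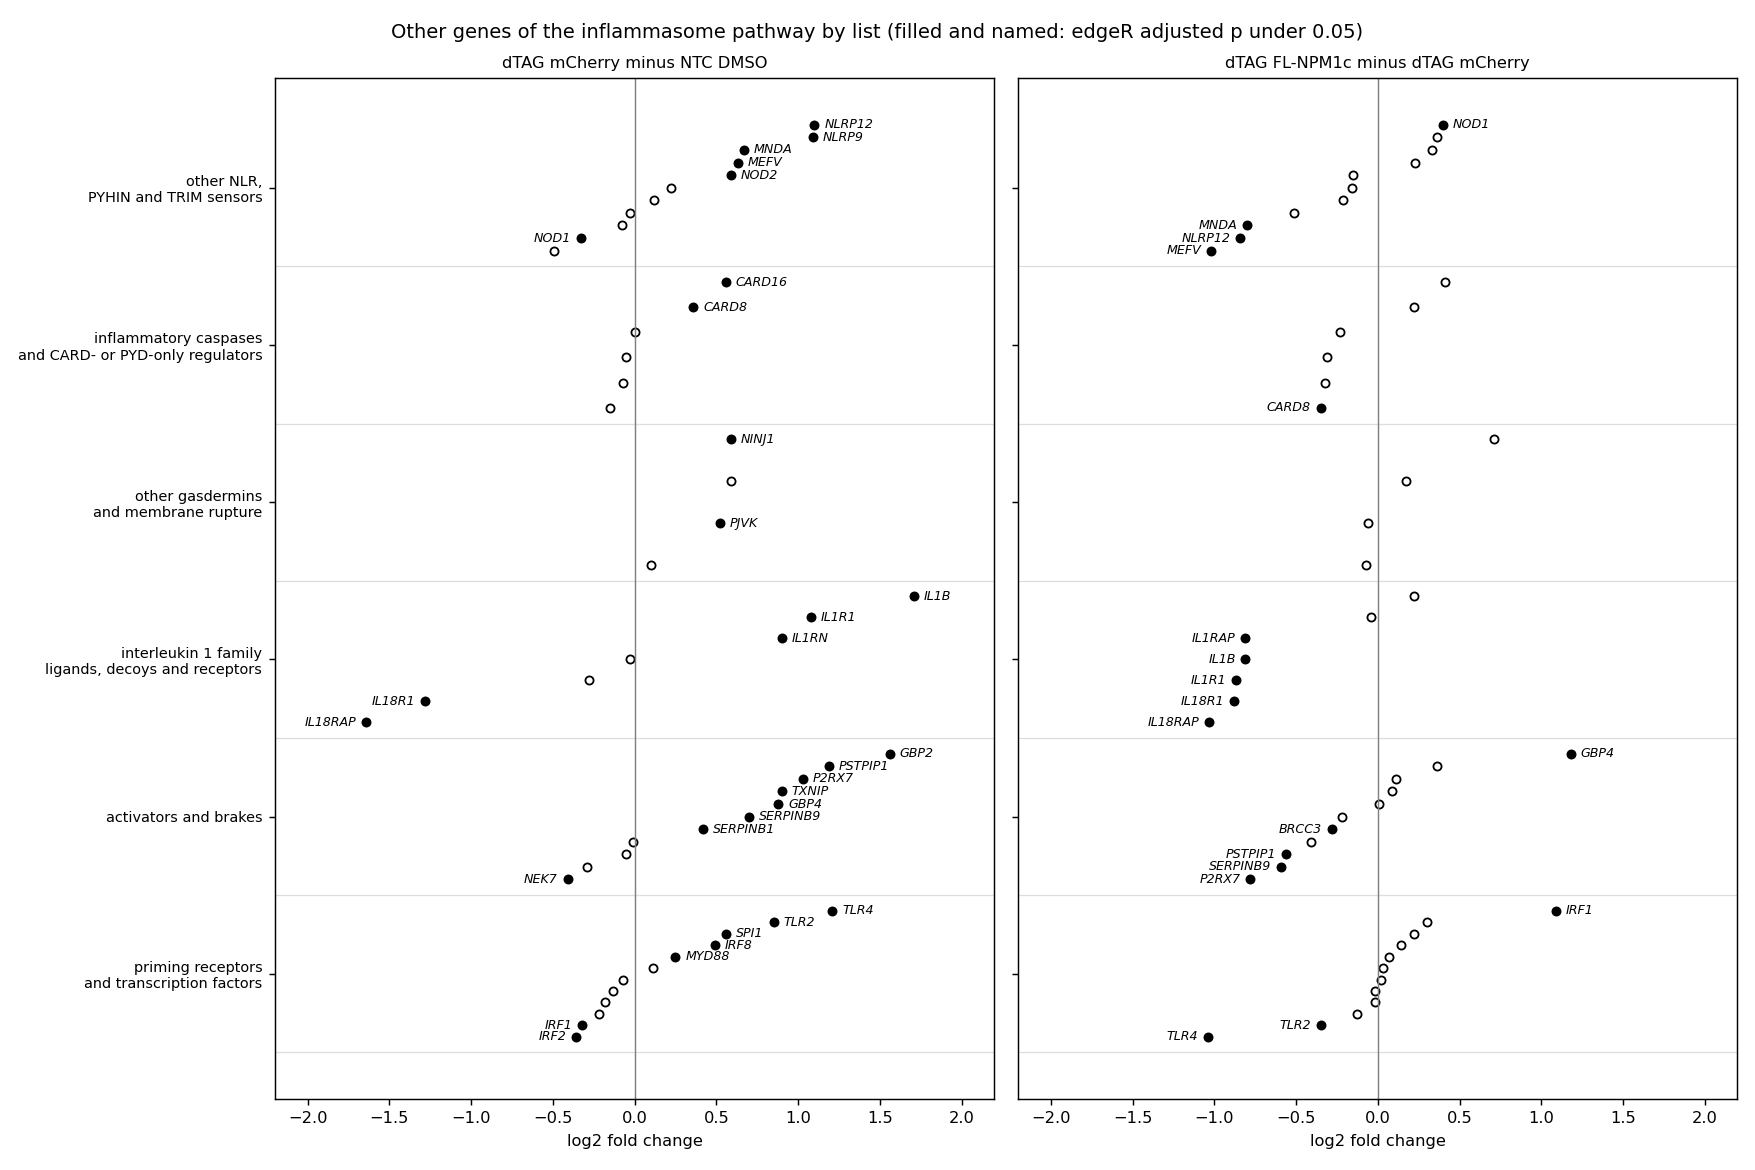
Log2 fold change of the tested genes of the 6 pathway lists in dTAG mCherry minus NTC DMSO (left) and dTAG FL-NPM1c minus dTAG mCherry (right); each point is a gene, filled and named where edgeR's adjusted p was under 0.05. In the interleukin 1 family list, 5 of 7 tested genes are filled to the left of 0 in the right panel.

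The genes whose log2 CPM was most like that of a member over the 12 libraries were ranked by Pearson's r among 16338 genes, as a description; the libraries fall into 4 groups and share their scaling. For NLRP3 they were ZDHHC5 (r = 0.901), RRP8 (0.901) and ZFHX3 (0.898). For CASP1 they were SQOR (0.981), AC090527.2 (0.977) and ADK (0.975), and for IL18 PHLDA1 (0.891), ID2 (0.862) and EID1 (0.859). For PYCARD they were PYCARD-AS1 (1.0), with which it may share its counts, UPK3BL2 (0.985) and TREX1 (0.982).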

How the data were processed

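The authors deposited whole-number counts per gene for 12 libraries, made from total RNA with a stranded kit for mRNA per the labels. STAR, featureCounts, DESeq2 and hg38 are named in the submitters' processing notes, without versions; annotation, strand setting and handling of multi-mapping reads are not stated there. Of 78936 lines, 6 were broken and left out. Columns were matched to samples by library number, an inference from the labels, and groups followed the titles. The running numbers in the cell line labels were not used.

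Counts were fitted with edgeR 4.0.16 in R 4.3.3: filterByExpr by group, TMM scaling (factors 0.975 to 1.02), 1 robust quasi-likelihood fit of all 12 libraries and 6 contrasts, called at adjusted p under 0.05 (Benjamini-Hochberg over 24064 genes). Standard errors are the absolute log2 fold change over the square root of F. CPM per kb used merged exon lengths of GENCODE 29 on GRCh38, and log2 CPM a prior count of 2. Within groups, libraries differed beyond sampling noise (chi-square per degree of freedom 3.72 to 37.7). In data simulated for dTAG mCherry minus NTC DMSO on 23684 genes, recovery was 43 of 67 at 1.5-fold, 63 of 67 at 2-fold and 66 of 66 at 4-fold, with 15 false among 187 calls. The changed genes there all had a mean above 1 CPM, and no other gene differed between groups. Far fewer genes changed than the 5429 called in the data, so these rates need not carry over to the data. Totals of 30.5 M to 59.9 M counts limit precision for the scarcest members.

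The members and lists were chosen with earlier results of these data known. All members are named; from each pathway list, up to 4 called genes with the largest change in dTAG mCherry minus NTC DMSO and up to 4 in FL-NPM1c minus mCherry, with other values of a named gene, such as IL1B in the second, where useful. ELANE was added after its values were seen. In the priming list, 1 gene is counted but is not reported here by name or in the plot. Likeness took the 3 genes with a symbol, a mean of at least 1 CPM and the highest r. Alternatives were other scaling, filters, DESeq2 1.42.0, the 2 groups alone, a replicate block and leaving out each library.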

Additional observations from a re-analysis of the deposited data

How the results depend on the processing

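For the members and the other named genes, no difference that passed the threshold changed sign: of 4212 values under 19 other settings, 4053 stayed on the same side of the threshold, 119 lost the call and 40 gained it. In 34 of the 4053 the sign changed, all of them differences that passed in neither setting, such as AIM2 in FL-NPM1c minus mCherry (-0.09, with a range of -0.27 to 0.02) and NLRP1 there (-0.10, with a range of -0.21 to 0.04). Among the members, the calls of the main fit for AIM2, NAIP, CASP1 and GSDMD held in every setting. The number of members called in FL-NPM1c minus NTC DMSO ran from 2 to 6 on leaving out single libraries, against 5. Without a low-count filter, 3 further member calls appeared against NTC DMSO: PYCARD (0.33, adjusted p = 0.012) and GSDMD (-0.35, adjusted p = 0.017) in dTAG mCherry and GSDMD (0.32, adjusted p = 0.023) in FL-NPM1c, and CASP4 passed in FL-NPM1c minus mCherry (-0.28, adjusted p = 0.038). CASP4 in dTAG mCherry minus NTC DMSO passed with library totals only (0.27, adjusted p = 0.043), and GSDMD in FL-NPM1c minus NTC DMSO with the 2 groups alone (0.32, adjusted p = 0.017). The cause was not tested.

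The replicate numbers did not pair the libraries: of 18 same-number pairs, correlations of deviations ran from -0.3072 to 0.1591, 2 were over 0.1, and 0 of 12 libraries correlated best with its own number. With the replicate block, 5, 4, 0, 4, 5 and 6 members were called in the 6 comparisons, as without it; the block ended the ELANE call in FL-NPM1c minus mCherry (0.58, adjusted p = 0.05). All genes called in C-body null minus mCherry went from 143 to 86 with the block, 63 with the 2 groups alone, 368 with no filter and 371 with DESeq2. With the 2 groups alone, dTAG mCherry minus NTC DMSO went from 5429 to 3402 and FL-NPM1c minus C-body null from 2329 to 4410. FL-NPM1c minus mCherry (3735 genes) gave 1834 and 1621 without FL-NPM1c replicate 1 and 2, and 2186, 6834 and 1874 without mCherry replicate 1, 2 and 3. C-body null minus mCherry gave 60, 68 and 65 without C-body null replicate 1, 2 and 3, and 73 and 1399 without mCherry replicate 1 and 2. FL-NPM1c minus C-body null gave 1378 and 1387 without C-body null replicate 1 and 2, and 1511 and 1365 without FL-NPM1c replicate 1 and 2. FL-NPM1c minus NTC DMSO (6712 genes) gave 4190 and 4302 without NTC DMSO replicate 1 and 2, and 4457 without FL-NPM1c replicate 2. At 9 to 15 counts a library in NTC DMSO, AIM2 is the member most limited by depth.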
